A study of Mus musculus with 11 samples.

Results

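Stable PU.1 promoter regions without IRF4 are the 1964 places where PU.1 sat within 1 kb of the transcription start of a protein-coding gene on both days of B cell stimulation, with no IRF4 peak beside it. They were chosen from the deposited peak positions. A region of the PU.1 day 1 list counted as stable where a position of the PU.1 day 3 list lay less than 200 bp away, and as free of IRF4 where no position of any of the 6 IRF4 libraries lay that near. Of 21966 day 1 regions, 14132 had a day 3 partner, 10485 of these had no IRF4 peak, and 1964 of these (8.94% of the day 1 list) lay within 1 kb of a start. The remaining 8521 are called the distal regions below, and 488 further stable promoter regions that did have an IRF4 peak are the other comparison set. Because peak positions and calls chose the members, their stability, their lack of IRF4 and their nearness to a start are not findings.

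The study used chromatin immunoprecipitation with sequencing (ChIP-seq), in which an antibody pulls down a protein with its DNA and pile-ups of that DNA along the genome are reported as peaks. Resting mature B cells came from the spleens of B1-8i mice of strain background 129, which carry a gene-targeted antibody against the hapten NP. All cells of the ChIP libraries received NP-Ficoll at 0.01 ng/mL with CD40L, IL-2, IL-4 and IL-5, and were taken at day 1, after activation, or at day 3, after differentiation toward plasma cells. The design asked how binding of both factors differs before and after that differentiation. There were 2 PU.1 and 3 IRF4 libraries per day and 1 input library, for which DNA of 2 B cell preparations (peripheral or immature) was pooled and against which the authors took enrichment. The labels used here state no age for the mice. No unstimulated cells were compared, and the labels do not say whether replicates were separate animals or cultures, so p-values here reflect library-to-library spread that could be purely technical. A culture at day 3 can hold cells that did not differentiate, and peaks do not say in which cells a place was bound.

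The PU.1 libraries held 27321 and 38052 peaks at day 1 and 34410 and 34061 at day 3, and the IRF4 libraries held between 825 and 9326. The lists hold no read numbers, so depth is unknown and the absence of an IRF4 peak means only that none was called. The PU.1 lists used to choose members are copies of lines of replicate 1 of each day. Each member also had a peak in the second replicate of both days. So did all 8521 distal regions and all 488 promoter regions with IRF4, so this does not set members apart.

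PU.1 is a transcription factor of the Ets family, made in B cells and myeloid cells and needed for the development of both. Ets factors recognise a GGAA core, and PU.1 favours a core preceded by adenines or by GA, as in GAGGAAGT. Many other Ets factors, such as Elf1, Ets1 and GABP, are expressed widely and bind cores preceded by C, often in CpG-rich promoters of genes that all cells use. IRF4 binds weakly alone and is recruited by PU.1 to composite Ets-IRF elements (EICE, a GGAA and a GAAA with any 2 bases between them). Promoters that PU.1 occupies without IRF4 are therefore a set in which a PU.1-type and a general Ets-type DNA signature can be compared.

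Both signatures can be read directly in the DNA. The next 6 stretches, taken from the mm9 reference (NCBIM37) at peaks that overlap no annotated exon in the printed part, each hold the PU.1 site GAGGAAGT, shown in capitals and appearing as ACTTCCTC where it lies on the opposite strand. All are printed 5′ to 3′ on the strand of the gene. They show the 3 strongest members that qualified, a member with 2 PU.1 sites, and genes of the phagocyte oxidase and the B cell receptor lists.
A430084P05Rik: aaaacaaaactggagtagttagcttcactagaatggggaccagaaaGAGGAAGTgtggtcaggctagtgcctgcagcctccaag
Actr2: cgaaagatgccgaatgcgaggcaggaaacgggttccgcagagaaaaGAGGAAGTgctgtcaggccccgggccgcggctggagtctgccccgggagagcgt
Zfp809: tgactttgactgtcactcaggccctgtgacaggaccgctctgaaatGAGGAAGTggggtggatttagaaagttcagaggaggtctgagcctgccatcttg
Traf3ip3: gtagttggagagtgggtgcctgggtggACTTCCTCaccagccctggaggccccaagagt
Ncf4: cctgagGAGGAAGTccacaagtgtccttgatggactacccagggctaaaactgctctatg
Cd72: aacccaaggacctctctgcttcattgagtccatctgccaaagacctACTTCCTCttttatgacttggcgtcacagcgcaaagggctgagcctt
Their places are chr11:70626089-70626172 (minus strand) just upstream of A430084P05Rik, chr11:20012373-20012472 (minus strand) in an intron of Actr2, chr9:22030093-22030192 (plus strand) upstream of Zfp809, chr1:195027741-195027799 (minus strand) upstream of Traf3ip3, chr15:78075085-78075144 (plus strand) upstream of Ncf4 and chr4:43467501-43467593 (minus strand) upstream of Cd72. Traf3ip3 and Ncf4 each hold 2 PU.1 sites in the 200 bp around the peak, of which 1 falls in the printed stretch.

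The other 2 stretches hold the Ets site CGGAAGT, called the CG-type Ets site here, which appears as ACTTCCG on the opposite strand. They lie at chr8:47824879-47824978 (plus strand), upstream of Irf2, and at chr15:58765286-58765339 (minus strand), at the shared promoter of Tatdn1 and Ndufb9.
Irf2: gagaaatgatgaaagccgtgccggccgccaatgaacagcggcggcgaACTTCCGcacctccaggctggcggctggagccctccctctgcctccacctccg
Tatdn1: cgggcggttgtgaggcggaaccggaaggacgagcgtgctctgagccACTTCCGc
The 200 bp around these peaks had observed-to-expected CpG ratios of 1.00 at Irf2, where they also held an EICE, and 0.91 at Tatdn1. Among the stretches with the PU.1 site, Actr2 had 0.61, Zfp809 0.58 and Cd72 0.33. Ncf4 had 0.12, A430084P05Rik 0.09 and Traf3ip3 0.06. The CG-type site was picked after the octamers nearest to the peaks had been counted, and since it contains a CG its frequency follows CpG content by construction.

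Members crowded at the start site. The median peak position was 31 bp upstream of the nearest start (signed distance -31 bp, quartiles -164 and 119 bp). Of the 1964 regions, 803 (40.9%) lay within 100 bp of a start and 1091 (55.5%) within 200 bp, while 498 (25.4%) lay more than 500 bp away. The 100 bp just upstream of the start held 539 regions and the 100 bp just past it held 263. In all, 1196 regions (60.9%) were upstream and 768 at or past the start. The peak position fell in an exon for 536 regions (27.3%), in an intron for 608 (31.0%) and outside genes for 820 (41.8%). For 1233 regions (62.8%) the nearest start was the annotated start of the gene, and for 731 (37.2%) it was an alternative start.

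**Figure D1:**
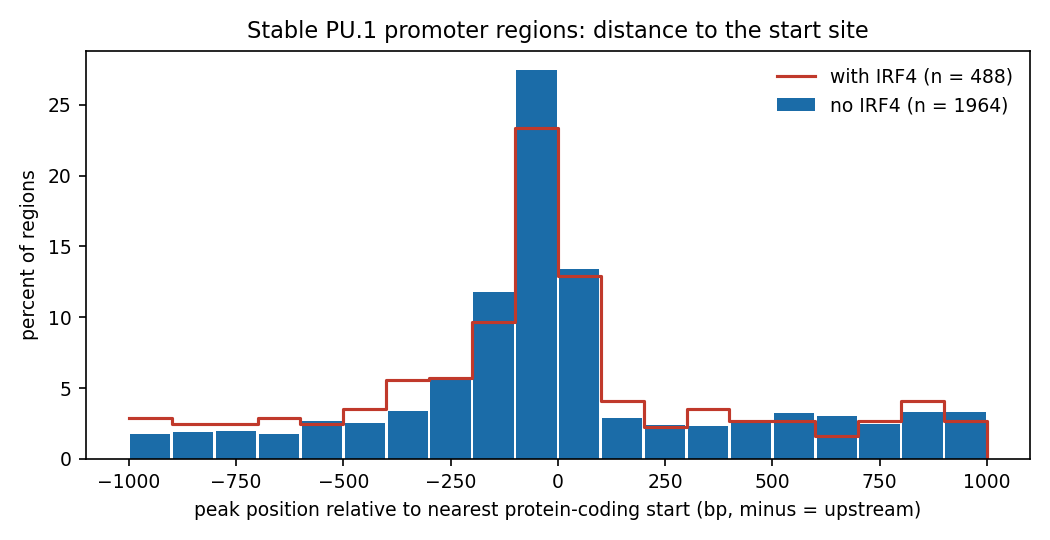
Distance of the peak position from the nearest protein-coding start (bp, minus is upstream) in 100 bp bins, as percent of regions, for the 1964 stable PU.1 promoter regions without IRF4 (bars) and the 488 with IRF4 (line). Both sets are highest in the 100 bp just upstream of the start, which holds 539 of the regions without IRF4.

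Enrichment, the authors' fold over input, was moderate at most members. In replicate 1 of day 1 the lowest value was 15, the median 33.3 and the highest 475. Replicate 2 of day 1 ran from 15.1 through a median of 50.7 to 1119. At day 3, replicate 1 ran from 15 through 75.7 to 1485 and replicate 2 from 14.9 through 46.9 to 1070. Each library has its own scale, so these values are not compared between days. Within libraries, the distal regions had medians of 39.5 and 52.0 at day 1 and of 57.7 and 48.8 at day 3, in order of replicate. Members were thus below the distal regions in 3 libraries and above them in replicate 1 of day 3. The promoter regions with IRF4 had higher medians than members in all 4 libraries, at 68.5, 95.7, 136 and 97.6. These are descriptions, since enrichment decided which peaks were listed.

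The order of the members by enrichment was similar between libraries. Spearman's rho over the 1964 regions was 0.796 between the day 1 replicates and 0.831 between the day 3 replicates, and between 0.693 and 0.848 for the 4 pairs across days. The lowest pair joined replicate 1 of both days. Peak positions of a region in different libraries lay a median of 17 to 21 bp apart. The regions share their libraries, so these coefficients only describe how alike the lists are.

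The 15 members with the highest day 1 enrichment were all strong in every PU.1 library. A430084P05Rik led the day 1 list at 475 and had 1119 in replicate 2, then 492 and 855 at day 3 (replicates 1 and 2). Actr2, a subunit of the Arp2/3 complex that nucleates branched actin, had 397 and 986 at day 1 and 1485 and 1070 at day 3, the highest of all members in both day 3 libraries. Zfp809, a zinc-finger protein that silences retroviral DNA, had 375 and 994 at day 1 and 1113 and 750 at day 3. A430084P05Rik was thus the strongest member in both day 1 libraries and Actr2 in both day 3 libraries.
Nckap1l, the blood-cell member of the actin-regulating WAVE complex, had 371 and 779 at day 1 and 686 and 555 at day 3. Xdh, xanthine dehydrogenase of purine breakdown, had 416 and 533, then 573 and 482. Arhgap25, a GTPase activator, had 338 and 368, then 525 and 400. None of these 3 fell below 338 in any library.
The remaining regions of the 15 were at A630001G21Rik, Aplf (a DNA end-joining factor), 4930402F06Rik, Fam49b, Lpxn (leupaxin, an adhesion adaptor), Reep5, Kdm2b (a histone demethylase), Pira5 (a paired immunoglobulin-like receptor) and Iqgap1 (a cytoskeletal scaffold). Pira5 belongs to a family of near-identical genes, among which short reads may be misplaced. A PU.1 site lay within 100 bp of the peak at 13 of the 15, the exceptions being Xdh and Reep5, and 0 of the 15 held a CG-type site. Of the 15, 11 lay upstream of the start and 8 within 200 bp of it.

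**Figure D2:**
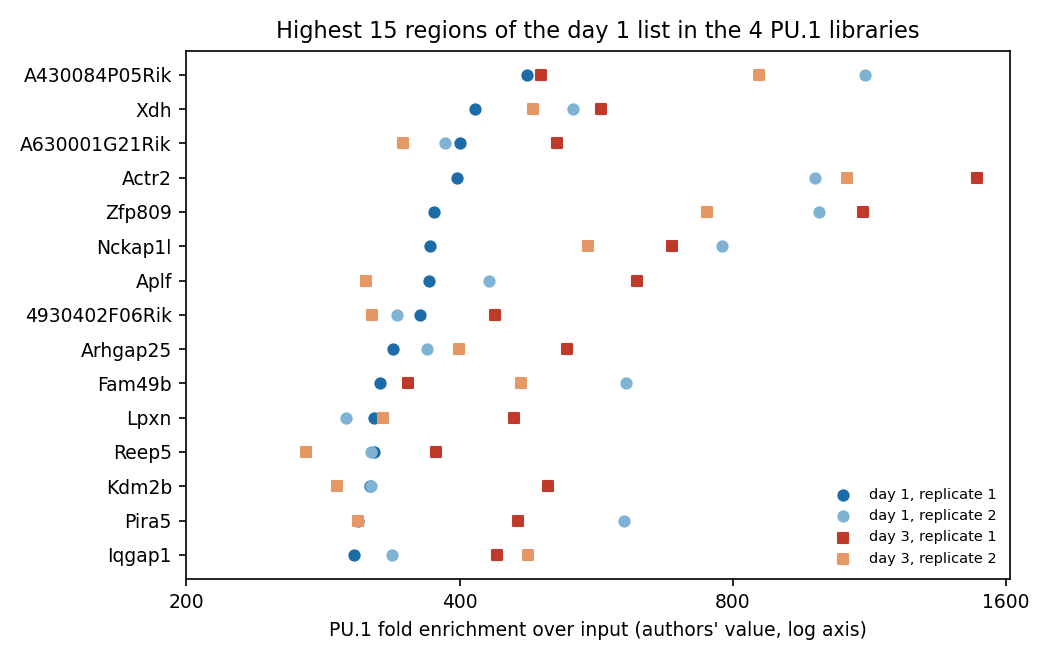
PU.1 fold enrichment over input (authors' value, log axis) in the 4 PU.1 libraries for the 15 members with the highest day 1 enrichment, 1 point per library. Actr2 reaches 1485 in replicate 1 of day 3 and A430084P05Rik 1119 in replicate 2 of day 1, and the lowest point is 271, at Reep5.

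Every member held a GGAA core in the 200 bp around its peak position (1964 of 1964, Wilson 95% interval 99.8 to 100%). The core was also in 99.2% of distal regions and in 88.2% of the same length of DNA at 22225 protein-coding gene starts, centred 50 bp upstream of the start. Read backwards, as AAGG, it was in 88.7% of members, so its presence alone says little. Its position says more: the nearest GGAA lay a median of 12 bp from the peak in members and in distal regions, against 26 bp from the centre of the promoter windows. It was within 25 bp in 79.6% of members, 79.6% of distal regions and 43.4% of promoters.

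The bases beside that nearest core differed between the sets. In members the base before GGAA was A in 46.8% and C in 21.7%. In distal regions it was A in 62.1% and C in 3.88%, and at all promoters A in 31.8% and C in 17.5%. Among whole octamers, GAGGAAGT was the nearest in 13.0% of members, 19.6% of distal regions and 1.12% of promoters. GCGGAAGT, next in members, was nearest in 5.6%, 0.69% and 0.81%. Members thus carried PU.1's own octamer less often than distal regions, and a C-preceded core more often.

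Counted over the whole 200 bp, the PU.1 site was in 424 members (21.6%, Wilson 95% interval 19.8 to 23.5%). It was in 31.6% of distal regions, 15.6% of promoter regions with IRF4, 18.3% of the 613 IRF4-free promoter regions seen in the day 1 list only, and 2.45% of all promoters. Read backwards it was in 1.58% of members. A single site was present in 415 members and 2 sites in 9, and 1540 had none. By the number of sites, the leading members were Traf3ip3, Ncf4, Strada, Zbtb32 and Zfp54, each with 2. Traf3ip3 had enrichments of 265, 368, 429 and 316 in the 4 libraries in order of day and replicate, and Zfp54 had 30.1, 49.1, 68.8 and 41.8, so 2 sites did not go with a fixed level.

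The CG-type Ets site was in 406 members (20.7%, 18.9 to 22.5%), nearly as many as the PU.1 site. The CG-type site is the shorter of both, so their shares are not on a like footing. The CG-type site was in 2.98% of distal regions, 12.3% of promoter regions with IRF4 and 11.9% of those in the day 1 list only. It was in 6.89% of all promoters and in 2.45% of the 14365 promoters with no PU.1 peak in any library. An octamer form, CCGGAAGT, was in 6.31% of members, 0.62% of distal regions and 4.27% of all promoters. Read backwards, as TGAAGGC, the CG-type site was in 2.34% of members, 3.47% of distal regions and 2.81% of all promoters. Reading it backwards turns its CG into GC, so this control does not match its CpG content. Both sites gathered under the peak: 57.3% of the 433 PU.1 sites and 40.7% of the 504 CG-type sites lay within 25 bp of the peak position. CG-type sites were tied to the start as well, with 85.5% of them within 200 bp of it and 45.4% in the 100 bp upstream, against 48.7% and 22.4% of PU.1 sites. The CG-type site read in the direction of the gene in 57.9% of cases (53.6 to 62.2%) and the PU.1 site in 54.5% (49.8 to 59.1%).

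**Figure D3:**
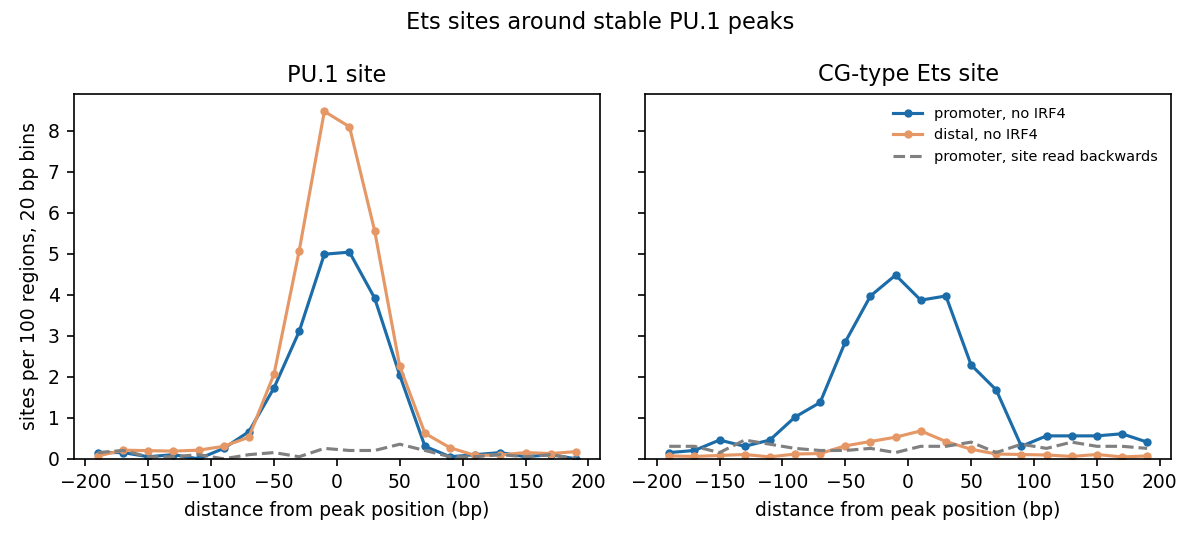
Sites per 100 regions in 20 bp bins around the PU.1 peak position, for the PU.1 site GAGGAAGT (left) and the CG-type Ets site CGGAAGT (right), in members (blue), distal regions (orange) and members with the site read backwards (dashed). Both sites peak under the PU.1 position in members, where they reach 5.04 and 4.48 per 100 regions, and the CG-type curve of the distal regions stays below 1.

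The sites of both types mostly sat in different members. The PU.1 site alone was in 393 regions (20%), the CG-type site alone in 375 (19.1%), both in 31 (1.58%) and neither in 1165 (59.3%). Regions with the PU.1 site alone had a median GC content of 52.5%, a median observed-to-expected CpG ratio of 0.42 and lay a median of 282 bp from the start. Those with the CG-type site alone had 60.0% GC, a CpG ratio of 0.86 and lay 50 bp from it. So the CG-type class lay nearer to start sites and had the higher CpG ratio. Part of that ratio is built in, since the CG-type site contains a CG.

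Enrichment by class depended on the library. Regions with the PU.1 site alone had medians of 46.9 and 67.4 at day 1 and 90.4 and 59.2 at day 3 (replicates 1 and 2). Regions with the CG-type site alone had 30.3 and 50.4, then 99.5 and 51.4, and those with neither 31.2 and 46.4, then 65.5 and 42.5. The PU.1 class was above the CG-type class in 3 libraries and below it in replicate 1 of day 3. The 31 regions with both sites had the highest medians in all 4 libraries, at 61.4, 115, 240 and 115. Across quartiles of day 1 enrichment, from the lowest to the highest, the PU.1 site was in 11.6%, 15.5%, 22.8% and 36.5% of members and the CG-type site in 20.4%, 25.1%, 20.6% and 16.7%. With quartiles taken in replicate 2 of day 3, the shares were 14.9%, 16.3%, 19.6% and 35.6% for the PU.1 site and 13.4%, 22.0%, 22.8% and 24.4% for the CG-type site. The rise of the PU.1 site with enrichment was in both rankings, and the CG-type order was not the same in them. Replicate 2 of day 1 was not ranked in this way. Nor was replicate 1 of day 3, the library in which the CG-type class was above the PU.1 class.

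Shares of both sites differed with CpG content, in opposite directions. The CpG ratio had a median of 0.60 in members, 0.21 in distal regions, 0.42 in promoter regions with IRF4 and 0.57 at all promoters. From the quartile of members with the lowest ratio to that with the highest, the share with the PU.1 site went from 31.6% through 27.5% and 16.3% to 11.0%. The CG-type share went from 2.65% through 9.98% and 26.5% to 43.6%. Part of this rise is built in, since the CG-type site contains a CG. All promoters with CpG ratios in the same 4 ranges had the CG-type site in 0.60%, 4.12%, 10.4% and 13.9% and the PU.1 site in 3.75%, 2.18%, 1.98% and 1.39%. At a like CpG ratio, members therefore had both sites at higher shares than promoters in general, although promoter windows are placed on starts and member windows on peaks, and what this placement contributes was not tested.

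**Figure D4:**
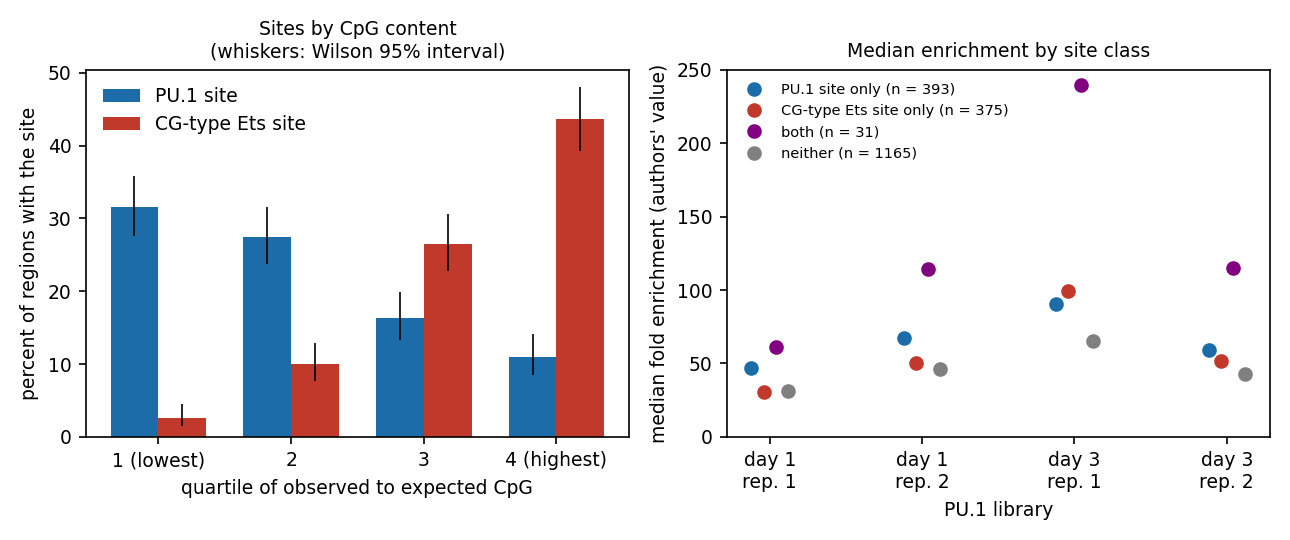
Left, percent of members with the PU.1 site or the CG-type Ets site by quartile of the observed-to-expected CpG ratio (whiskers, Wilson 95% intervals). Right, median PU.1 fold enrichment of 4 site classes in each library. The PU.1 site falls from 31.6% to 11.0% as the CG-type site rises from 2.65% to 43.6%, and the regions with both sites have the highest median in every library.

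Distance from the start told the same sites apart. The CG-type site was in 37.0% of members within 50 bp of a start, 28.6% at 51 to 100 bp, 20.5% at 101 to 200 bp, 12.0% at 201 to 500 bp and 5.22% beyond. The PU.1 site was in 18.3%, 20.6%, 18.8%, 21.1% and 27.7% over the same steps. CpG ratios fell along these steps too, from a median of 0.77 to 0.37, so distance and CpG content moved together and their separate parts were not tested. GC content of members had a median of 55.0% (quartiles 49 and 61), against 47.5% in distal regions and 51% in promoter regions with IRF4. All protein-coding promoters had 57.5% and promoters with no PU.1 peak in any library 54%. High GC content was thus not particular to members. The members with the lowest GC were Dennd1b at 35.0%, Dock10 at 35.5%, Slc35e3 and Zfp52 at 36% and Pes1 at 36.5%, all of them over 500 bp from a start.

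The peaks of each library were then used as replicates, which makes the library and not the region the unit. Here all IRF4-free PU.1 peaks of a library count, which numbered 3219, 5118, 6607 and 4545 at promoters. The PU.1 site was in 19.3% and 15.7% of the promoter peaks at day 1 and in 12.3% and 16.4% at day 3. In the distal peaks it was in 29.4%, 27.8%, 25.8% and 28.1%. Promoter peaks were thus lower in 4 of 4 libraries, at 15.9 ± 2.86% against 27.8 ± 1.47% (mean ± SD, n = 4 libraries), a difference of -11.8 percentage points. The exact sign-flip permutation test, two-sided, gave p = 0.13, the smallest that 4 libraries allow (0.156 adjusted by Benjamini-Hochberg over 5 tests). Median GC content was 55.5 ± 1.87% in promoter peaks and 47.4 ± 0.75% in distal peaks, higher at promoters in 4 of 4 libraries (difference 8.13 points, exact p = 0.13, adjusted 0.156). Promoters with no PU.1 peak in any library also had a median GC of 54%. The GC difference is thus at least partly set by the split on distance to a start, and is no finding about PU.1. The design cannot reach 0.05 in either test. The libraries also share regions: all 1964 members and all 8521 distal regions had a peak in each of the 4. Agreement between libraries is therefore partly a repeat reading of the same DNA, here and in the library tests below.

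Sites for IRF factors were in a smaller share of promoter regions without than with an IRF4 peak. The EICE was in 6.11% of members, 11.1% of distal regions and 23.0% of promoter regions with IRF4, against 1.71% of all promoters, and read backwards it was in 2.34% of members. Over the promoter peaks of single libraries it was in 5.07 ± 0.63% without and 18.7 ± 2.02% with IRF4 (n = 4), lower in 4 of 4 libraries, with a difference of -13.6 points (exact sign-flip permutation p = 0.13, adjusted 0.156). The ISRE, which has GAAA in both places, was in 4.12% of members and 9.02% of promoter regions with IRF4. An AP-1 site (TGANTCA) was in 4.74% and 7.58%. For the PU.1 site the same library test gave 15.9 ± 2.86% without and 13.1 ± 1.18% with IRF4, higher without in 4 of 4 libraries by 2.85 points (exact p = 0.13, adjusted 0.156). With promoters limited to 500 bp this last difference was 0.73 points (exact p = 0.25).

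Freedom from IRF4 was a matter of distance and of calling. An IRF4 peak of some library lay 200 to 499 bp from 77 members and from 500 to under 1000 bp from 124, together 201 (10.2%), against 6.74% of distal regions. The median distance was 17294 bp, and 177 members had none within 100 kb. The nearest were at Cops7a (203 bp), Cd300a (206 bp), Dek (208 bp), Cd86 (209 bp) and Zfat (214 bp). Irf2 (241 bp) and Ndufs1 (255 bp) were also close, and these genes would have left the set under a wider limit. Of the 488 promoter regions with IRF4, 288 (59.0%) had it in 1 library of 6 and 10 in all 6, so the line between both sets rests largely on single calls.

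On the question of a change between the days, the share of IRF4-free PU.1 peaks that lay at promoters was 14.6% and 15.8% in the day 1 libraries and 22.6% and 16.1% in the day 3 libraries. The groups did not overlap, but the second day 3 value was near the day 1 values. The difference of 4.17 points had an exact two-sided permutation p of 0.33, the smallest that 2 against 2 libraries allow (adjusted 0.33). It was 0.89 points without replicate 1 of day 3 and 7.45 points without replicate 2. For the stronger 50% of each library list the day difference was 5.59 points (exact permutation p = 0.67), and there the groups overlapped. Replicate 1 of day 3 also had the highest GC content at promoter peaks (58.0%, against 53.5 to 55.5%) and the lowest share of PU.1 sites there, and the part of these in the difference was not tested.

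Which genes had such a promoter was read against the background that 2063 of 22225 protein-coding genes (percent called 9.28) lay within 1 kb of a member. A stable promoter region with IRF4 lay at 2.33% of genes, some of which also had a member, and 35.4% had a PU.1 peak of any library. Most members (1758) had 1 gene within 1 kb, 205 had 2 and 1 had 3. Nearness does not show that PU.1 acts on a gene, and peaks measure binding, not expression. The 20 lists of genes were chosen with earlier results known, so their shares describe them and are not tests.

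Genes of the B cell receptor and B cell identity had the highest share, 11 of 25 (44.0%), and a further 6 had only a promoter region with IRF4. Cd79a, the signalling chain of the receptor, had enrichments of 149 and 239 at day 1 and 388 and 215 at day 3, at a peak 14 bp past its start. Cd72, an inhibitory co-receptor, had 100 and 199, then 175 and 155. Lyn, the kinase that starts and restrains receptor signals, had 80.8 and 110, then 197 and 102. Inpp5d, the phosphatase SHIP that dampens them, had 80.4 and 177, then 209 and 159. All 4 peaks lay within 50 bp of a start, and Cd72 and Inpp5d held the PU.1 site. Other genes of the list with a member included Cd79b, Cd22, Ptpn6, Pik3ap1, Vav1 and Cd37, and of the 11 genes 5 had a PU.1 site and 0 a CG-type site.

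Genes of the phagocyte oxidase, Fc receptors and lysosome, many of them textbook PU.1 targets in myeloid cells, had 12 of 34 (35.3%). Arhgdib, a GTPase regulator of blood cells, had 293 and 520 at day 1 and 553 and 419 at day 3. Ncf1, the oxidase subunit p47phox, had 261 and 427, then 525 and 418, and Laptm5, a lysosomal protein of blood cells, had 196 and 365, then 568 and 317. Ncf4, the subunit p40phox whose sequence is printed above, had 146 and 309, then 294 and 191. Cybb, the catalytic subunit of the oxidase, also had a member. Over the 12 genes the median was 86.7 in the day 1 list, against 33.3 over all members.

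Transcription factors of B cells had a member in 8 of 25 (32.0%). Sfpi1, the gene of PU.1 itself, had a peak 649 bp past a start in an intron, with 66.0 and 194 at day 1 and 224 and 144 at day 3. Irf2, a relative of IRF4, had 141 and 154, then 636 and 244, at a peak with a CG-type site. Id3, an inhibitor of E proteins, had 84.7 and 118, then 155 and 72.1, and Runx1 had 76.4 and 96.6, then 183 and 132. The factors Elf1, Ikzf3, Pou2af1 and Bcl11a were the others. In this list 0 of the 8 peaks held the PU.1 site GAGGAAGT, which says only that these letters were not in the window.

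Genes of NF-kB and activation also had 8 of 25. Tnfaip3, the A20 brake on NF-kB, was the strongest with 220 and 596 at day 1 and 769 and 446 at day 3. Ikbkb, a kinase that activates NF-kB, had 108 and 195, then 311 and 221, and Nfkb1 had 53.3 and 101, then 64.0 and 70.1. Junb, an AP-1 subunit, had 47.5 and 71.2, then 205 and 79.9, at a CG-type site. Antigen presentation had 8 of 25 as well: H2-Oa (118 and 201, then 229 and 170), H2-Eb1 (108 and 297, then 183 and 210), Cd86 and Cd40 led it, with H2-Ob, Tap2, Tapbp and Icosl. None of these 8 held either Ets site. H2-Eb1 has close relatives in the same locus, which could share reads.

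The list of cytokine and chemokine receptors had a member at 6 of 29 genes, among them Stat5b, which is not a receptor. It was led by Ifngr1, a chain of the interferon gamma receptor (217 and 315 at day 1, 298 and 247 at day 3). Ccr7, which guides B cells in lymphoid organs, had 78.9 and 92.2, then 235 and 147. Interferon-stimulated genes had 5 of 24, with Oas3 (70.5 and 102, then 197 and 82.3) and Oas2 (56.0 and 95.2, then 177 and 124) the strongest. Genes of plasma cells and secretion had 4 of 24 (16.7%, Wilson interval 6.68 to 35.9%): Ssr4, Edem1, Hsp90b1 and Derl3. Toll-like receptor signalling had 2 of 20, Ly96 and Irak2, while 7 of that list had a promoter region with IRF4. The Wilson intervals of the interferon, plasma cell and toll-like receptor lists include the background share.

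Genes that all cells use also had members. The spliceosome had 14 of 34 (41.2%), cytoplasmic ribosomal proteins 16 of 52 (30.8%), DNA replication and cell cycle 7 of 32 (21.9%), translation factors 6 of 31 and the proteasome 6 of 31 (both 19.4%), oxidative phosphorylation 6 of 37 (16.2%) and the mitochondrial ribosome 4 of 37 (10.8%). The Wilson intervals of the last 4 include the background share. Ndufb9, a subunit of respiratory complex I whose start is shared with Tatdn1, had 100 and 296 at day 1 and 756 and 331 at day 3. Rfc2, a clamp loader subunit of DNA replication, had 110 and 244, then 730 and 394. Psma5, a proteasome core subunit, had 98.7 and 328, then 555 and 338. All 3 held CG-type sites.
E2f1, the cell-cycle regulator, had 212 and 303, then 116 and 261, with neither site. Rps18, of the small ribosomal subunit, had 49.9 and 95.6, then 222 and 112 at a peak with 2 CG-type sites, and Srsf2, a splicing factor, had 68.4 and 147, then 222 and 136 with neither. At Mrps18b, Mrpl18, Psmd13, Sf3b3 and Eef1b2 the nearest start belonged to a neighbour (Ppp1r10, Tcp1, Sirt3, Cog4 and Ndufs1), so the region cannot be given to either gene of the pair.

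Grouping the lists after their values were seen, 8 immune lists had a member at 59 of 206 genes (28.6%, Wilson interval 22.9 to 35.2%). The 7 housekeeping and growth lists had a member at 59 of 254 (23.2%, 18.5 to 28.8%), so the intervals overlap. With members limited to 500 bp from a start, the shares were 23.8% and 22.8%, so the groups then hardly differed. The plasma cell and secretion list (4 of 24) and the myeloid marker list (2 of 20) were placed in neither group. The DNA of both groups differed in its sites. Of the 59 regions of immune genes, 13 (22.0%) held the PU.1 site and 5 (8.47%) the CG-type site, with a median CpG ratio of 0.34. Over all members these shares were 21.6% and 20.7%, so the immune regions were near all members in the PU.1 site and below them in the CG-type site. Of the 58 regions of housekeeping genes, 3 (5.17%) held the PU.1 site and 29 (50%) the CG-type site, with a CpG ratio of 0.90. Median enrichments were 53.3 and 77.4 at day 1 and 118 and 71.9 at day 3 for the immune group, and 29.5 and 46.8, then 97.2 and 50.9 for the housekeeping group. Immune promoters were the higher in each library. Without replicate 1 of day 3 the shares of genes were 33.0% and 26.0%, and without replicate 1 of day 1 they were 35.4% and 32.7%. In these runs the full list of the day's other replicate took the place of the day's list. Members then lay at 2315 and 2884 of 22225 genes, against 2063 in the main run, so the background rose too. An IRF4-bearing stable promoter region was found at 37 of the immune genes (18%) and 10 of the housekeeping genes (3.94%).

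Lists of genes that mark other cells had 0 to 2 genes with a member each, and the Wilson interval of each includes the background share. T and NK cell markers had 0 of 20 and neuron and liver genes 0 of 20, where a Wilson interval reaches 16.1%. Erythroid and megakaryocyte markers had 1 of 15, Pf4, at 862 bp upstream of the start, with 109 and 157 at day 1 and 143 and 175 at day 3. Myeloid markers had 2 of 20: Csf1r, the receptor of a macrophage growth factor (40.3 and 43.0, then 27.2 and 22.2), and Ly6c2 (34.1 and 82.9, then 124 and 79.6), which has a near-identical neighbour. All 25 genes of the B cell list had a PU.1 peak of some library within 1 kb, against 35.4% of all protein-coding genes. T and NK cell markers had 5 of 20 and myeloid markers 10 of 20. The phagocyte oxidase list had 31 of 34, NF-kB and activation 24 of 25 and cytoplasmic ribosomal proteins 46 of 52. Such shares were thus not particular to B cell genes and do not check the labelled cell type. PU.1 is also a myeloid factor, so these values do not count other cells in the cultures.

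**Figure D5:**
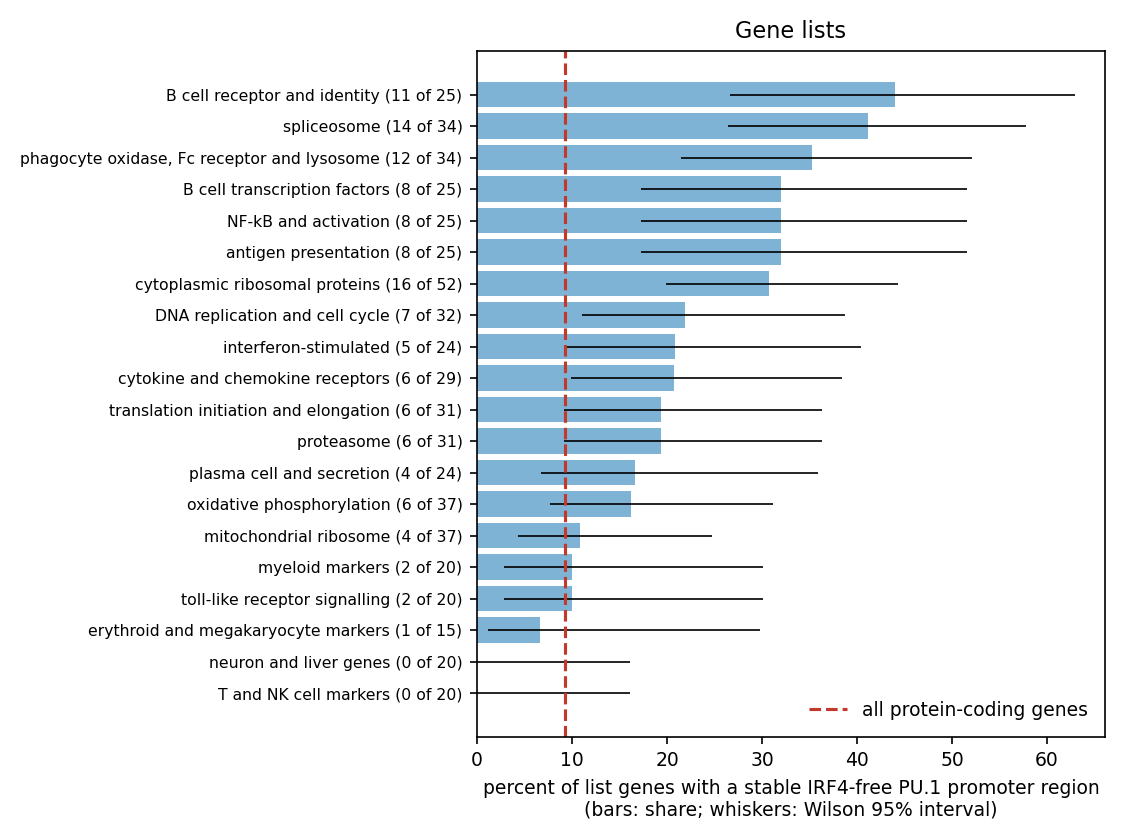
Percent of the genes of each of 20 lists with a member within 1 kb of a start (bars; whiskers, Wilson 95% intervals), beside the share of all protein-coding genes (dashed line, 9.28%). The B cell receptor list is highest at 44.0%, the spliceosome follows at 41.2%, and the T and NK cell and the neuron and liver lists are at 0.

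The members nearest to each limit of the rule show how close the sets lie. The day 3 partner was 198 bp away at Rps3a and 195 bp at Dek, inside, and 206 bp at Ppp1r12c and 209 bp at Ints6, outside. For IRF4, Cops7a (203 bp) and Cd300a (206 bp) were inside, and Btc (199 bp) and Sec23ip (196 bp) were outside. For the start, Gm885 (1000 bp) and Fbxo43 (996 bp) were inside, and Taok3 (1003 bp) and Etv1 (-1006 bp) outside. The weakest listed members were Peo1 (15 in the day 1 list) and Zfp628 (15), at the authors' own lower end. Etv1, with 143 and 117 at day 1 and 231 and 115 at day 3, was above the members' upper quartile in all 4 libraries.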

How the data were processed

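Reads were aligned to mm9 and peaks scored against input with QuEST by the authors, per the series' design text; the submitters' processing notes also name mm9. No aligner, version or threshold is stated in those sources. The authors deposited, for each library and for each factor and day, peak intervals with a peak position and a maximum enrichment, a linear ratio (fold over input) that served only to describe and rank peaks within a list. Peaks were called per library. Repeated lines (7 and 5 in the PU.1 lists) were counted once. The sources do not say if positions count from 0 or 1.

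Members, gene lists and site types were chosen with earlier results of these data known. Positions less than 200 bp apart were shared. Starts were the 46015 starts of 22225 protein-coding genes of GENCODE M1 on mm9. Of 557 list genes, 552 matched by symbol, 4 through an older symbol and 1 (Gfi1) did not. Motifs were searched on both strands of 200 bp windows, and overlapping motifs each counted: PU.1 and CG-type sites both contain GGAA, but 1 core cannot be part of both. The CpG ratio is observed over expected CpG from the base counts of the window. Shares carry Wilson 95% intervals, which cover sampling of regions only. Libraries were compared by exact permutation tests with Benjamini-Hochberg adjustment over 5 tests. Named were the 15 members of highest day 1 enrichment, up to 4 genes per list by enrichment, the 5 with most PU.1 sites, of lowest GC and nearest to IRF4, and 2 on either side of each limit. Genes of the lists without values, and Irf2 and Ndufs1 by IRF4 distance, were named after their values were seen. Python 3.11.15, numpy 2.4.6, pandas 2.3.3, scipy 1.17.1, pysam 0.24.0 and matplotlib 3.10.9 were used. Same-numbered PU.1 libraries did not deviate together over the members (r = -0.0342), and titles and descriptions number some replicates differently.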

Additional observations from a re-analysis of the deposited data

How the results depend on the processing

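With starts within 500 bp, the PU.1 site was in 19.5% of members and median GC was 57.0%. Within 2 kb these were 24.1% and 53.0%. The stronger 50% of each PU.1 list left 795 members at 834 genes, with the PU.1 site in 31.3% and GC at 53.5%. A 100 bp window gave 18.6%. Leaving out 1 library at a time gave 1965 to 2780 members at 2064 to 2884 genes, the PU.1 site in 18.4 to 21.8% and GC of 54.0 to 56.5%. For a PU.1 library, the full list of the day's other replicate took the place of the day's list, so each such run had more members. With starts within 500 bp, a run chosen after seeing the data, a member lay at 23.8% of immune and 22.8% of housekeeping list genes. Over the same omissions of PU.1 libraries, also chosen after seeing the data, the CG-type site was in 19.0 to 21.7%. Over these omissions a member lay at 30.6 to 35.4% of immune and 23.6 to 32.7% of housekeeping list genes. The day difference ranged from 0.89 to 7.45 points, the PU.1 site difference between promoter and distal peaks from -12.4 to -11.3, the GC difference from 7.5 to 8.5, the EICE difference from -14.1 to -13.0 and the PU.1 site difference without and with IRF4 from 2.26 to 3.64. With IRF4 taken from its group lists, the EICE difference was -25.1 and the PU.1 site difference without and with IRF4 was 4.85; the latter was 5.84 for the stronger 50%, 4.45 within 2 kb, 1.39 in a 100 bp window and 0.73 within 500 bp (exact permutation p = 0.25 in the last 2, 0.13 in the others). With the replicate number as a block the day difference stayed 4.17 points (exact sign-flip permutation p = 0.5, the smallest for 2 pairs). No result changed sign under any alternative run. Depth is unknown, so uncalled IRF4 binding cannot be told from absent binding.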

Other observations

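Members also carried the motifs of general promoters, as the following shares describe. The GC box GGGCGG was in 32.6% of members, 4.67% of distal regions and 40.1% of all promoters. The CCAAT box was in 24.7%, 19.1% and 29.6%, the NRF1 site (GCGCA, any base, GCGC) in 4.38%, 0.14% and 5.34%, and the YY1 site ATGGCGGC in 1.78%, 0.15% and 2.44%. The TATA box TATAAA was in 4.74% of members, below the 8.99% of all promoters. The Runx site TGTGGT, of a factor family of blood cells, was in 10.7% of members, 18.8% of distal regions and 10.3% of all promoters, so members were near promoters in general. The octamer ATGCAAAT was in 1.27%, 2.07% and 1.13%.

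Members at divergent gene pairs numbered 174 (8.86%), against 9.32% of all protein-coding gene starts. The CG-type site was in 36.8% of them (Wilson 95% interval 30.0 to 44.2%) and in 19.1% of the others, and the PU.1 site in 13.8% and 22.3%. Their median CpG ratio was 0.79, against 0.58 in the others. Members at annotated gene starts held the CG-type site in 23.4% and those at alternative starts in 16.1%, with median CpG ratios of 0.67 and 0.47. What CpG content contributes to these differences was not tested.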
